A study of Mus musculus with 9 samples.

Results

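Myc, the transcription factor that drives cell growth, and 38 genes that build ribosomes or are tied to that work are described here across leukemic and normal progenitors of the mouse bone marrow. They were taken by gene symbol from a fixed list, with the transcripts of each symbol added up. All 39 were in the table of 16537 gene symbols, and all 39 passed the filter on low counts that left 12837 genes to test. The 9 RNA libraries were made from sorted bone marrow cells, and all mice were of the inbred FVB/NJ strain. Leukemic progenitors (LP) from PML-RAR animals gave 3 libraries in the median phase and 3 in the early phase, and hematopoietic progenitor cells (HPC) from wild-type animals of postnatal day 42 gave the other 3. PML-RAR is the fusion of the promyelocytic leukemia protein with retinoic acid receptor alpha that marks acute promyelocytic leukemia. The sources used here name neither the promoter of the fusion nor the sorting markers nor the age of the LP mice, so leukemia, age and the mix of sorted cells cannot be told apart in a comparison with HPC. Nothing in the labels ties the 3 libraries of a group to different animals, and a p-value here therefore measures only how these libraries spread, which may be technical.

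Ribosomes are made in the nucleolus, where RNA polymerase I copies the ribosomal DNA into a long precursor RNA. Small nucleolar ribonucleoproteins (snoRNPs) then modify and help cut that precursor: box C/D particles methylate it, and box H/ACA particles convert uridine to pseudouridine. Assembly factors fold and trim the RNA into a small and a large subunit and leave before the ribosome is mature. Myc binds as a dimer with Max and is known to raise the output of this whole route, and cells that grow and divide, progenitors of the bone marrow among them, keep it high.

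Levels are in CPM, counts per 1 M (mega) counts after TMM scaling of the authors' estimated counts, and changes are log2 fold changes of LP over HPC with a standard error (SE). A gene was called where edgeR's quasi-likelihood test gave it a p under 0.05 after Benjamini-Hochberg adjustment over all 12837 genes. Depth was 20.6 to 28.3 M recovered fragments per library. CPM is a share of each library, so fewer cells of a type and less RNA per cell cannot be told apart. The labels were set against markers. Cd34, a surface protein of stem and progenitor cells, stood at 1.43 ± 0.307 CPM in median LP, 3.49 ± 0.291 CPM in early LP and 272 ± 32.6 CPM in HPC, whereas Kit, the stem cell factor receptor, stood at 247 ± 8.80, 251 ± 0.936 and 437 ± 23.1 CPM in the same groups. All 10 stem and multipotent progenitor markers were called lower in both LP groups than in HPC. Of these, Meis1, Hoxa9, Sox4, Mecom and Hlf were below 1 CPM in every LP library, while Kit was lower but not absent. These markers therefore do not settle whether the progenitor label of the LP groups holds. Mpo, the myeloperoxidase of promyelocytes, stood at 16903 ± 613 CPM in median LP, 21887 ± 1720.4 CPM in early LP and 9094 ± 484 CPM in HPC.

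Most of the ribosome biogenesis genes were lower in LP than in HPC, each by a moderate amount. In median LP 32 of the 39 members were called lower, 2 higher and 5 were not called, while of all genes tested 73.8% were called, 37.7% lower and 36% higher. In early LP 34 were called lower, 2 higher and 3 were not called, while of all genes 73.2% were called, 37.9% lower and 35.3% higher. The median log2 change of the members was -0.50 in median LP and -0.54 in early LP, against -0.04 and -0.04 over all genes. Both comparisons use the same 3 HPC libraries, and 32 members were called lower in both. The middle 50% of the members (between quartiles) lay between -0.70 and -0.33 in median LP and between -0.69 and -0.43 in early LP, while the quartiles of all genes ran from -0.52 to 0.57 in both. Only C1qbp in median LP was called lower by more than 1 on the log2 scale, a size that 14.5% of all genes reached there and 14.2% in early LP. The 3 libraries of median LP did not overlap HPC in 34 of the 39 members, against 75.7% of all genes, and those of early LP in 36, against 74.8%.

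**Figure D1:**
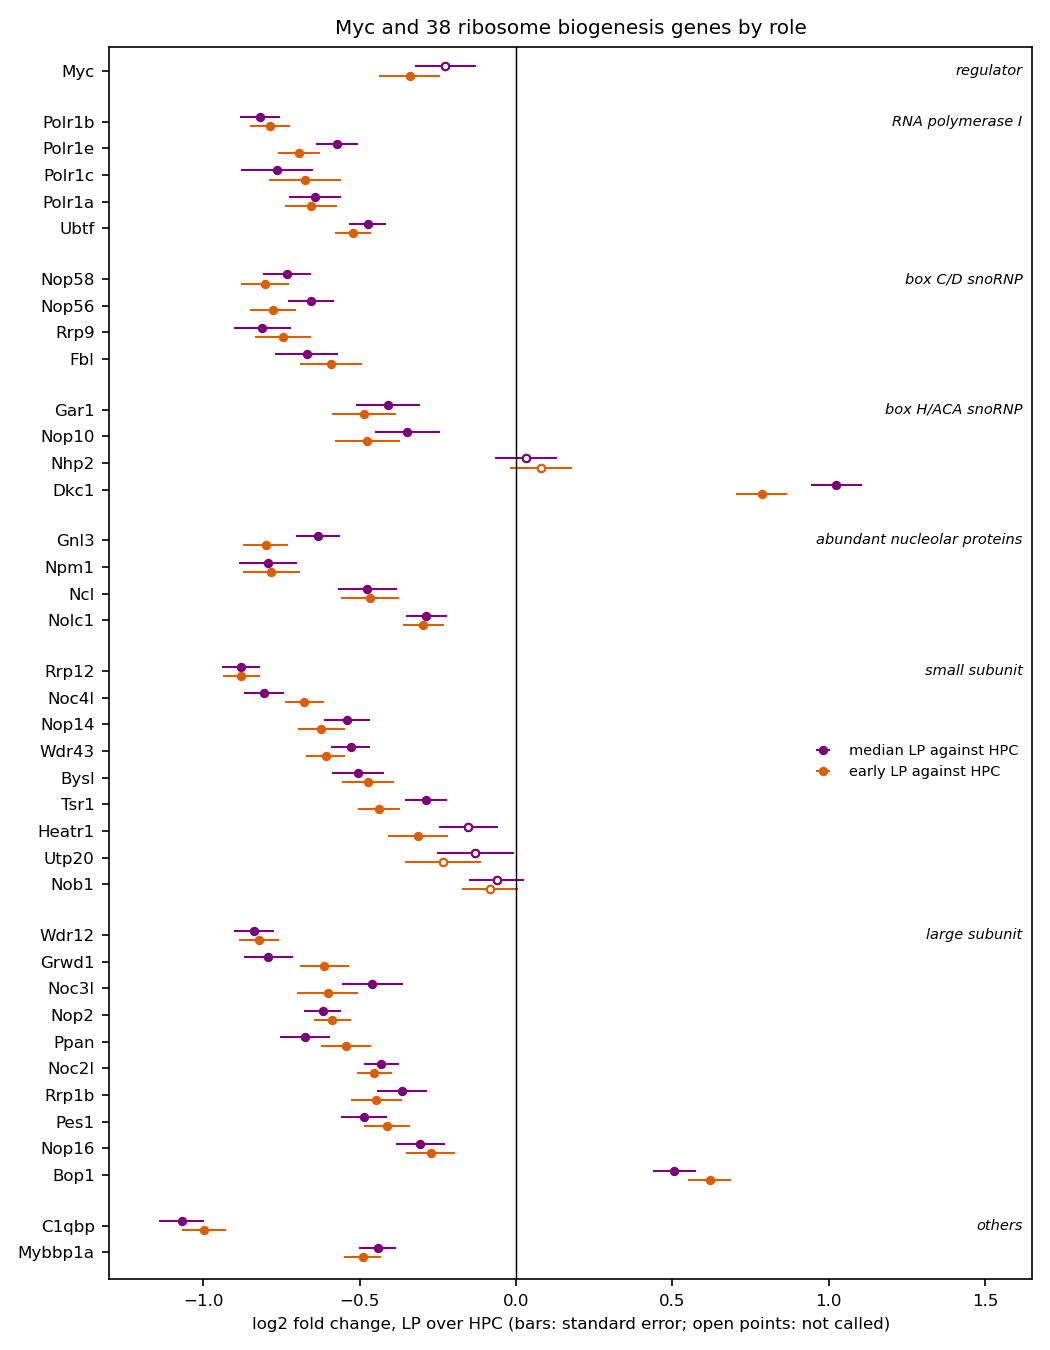
Log2 fold changes (horizontal axis) of Myc and 38 ribosome biogenesis genes in median LP (purple) and early LP (orange) over HPC, with SE bars, grouped by role; open points were not called. Nearly all points lie left of 0. Dkc1 and Bop1 lie right of it in both LP groups, and so, close to 0 and not called, does Nhp2.

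Added up, the 39 genes held 7338 to 8154 CPM in the median LP libraries, 7394 to 7798 CPM in the early LP libraries and 10629 to 10722 CPM in the HPC libraries, so no LP library reached an HPC library. The sum averaged 0.773 ± 0.0409% of the counts in median LP, 0.757 ± 0.0206% in early LP and 1.07 ± 0.00466% in HPC (SD, n = 3 each). Ncl and Npm1 made up 2729 ± 260 CPM of it in median LP, 2746 ± 155 CPM in early LP and 4245 ± 73.7 CPM in HPC. Without that pair the sum was 5002 ± 161, 4826 ± 56.6 and 6428 ± 39.7 CPM in the same groups. These sums describe a chosen list and were given no test.

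**Figure D2:**
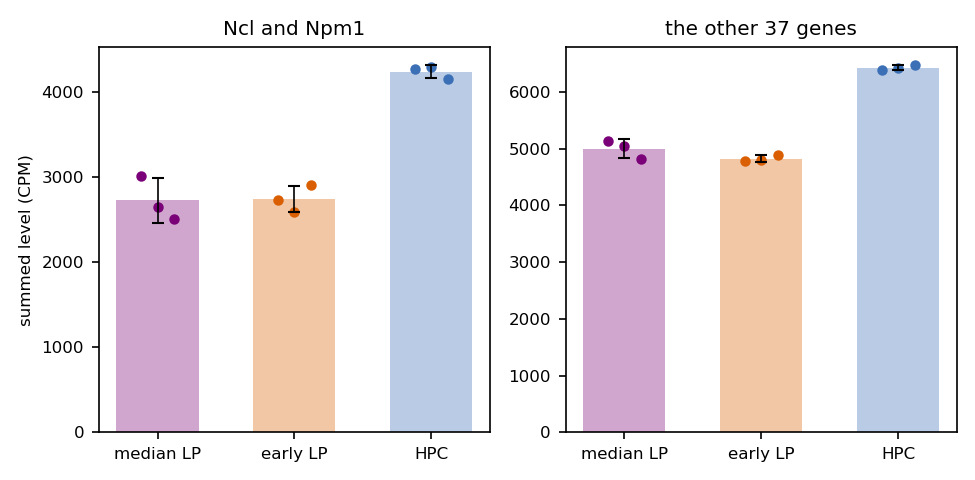
Summed level in CPM (vertical axis) of Ncl and Npm1 (left) and of the other 37 genes (right); bars are means with SD of 3 libraries and points are libraries. Every LP library lies below every HPC library in both panels.

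Myc itself (mm10, chromosome 15, 61985341 to 61990361) was among the members that differed least. It stood at 343, 304 and 258 CPM in median LP, 271, 299 and 267 CPM in early LP and 338, 372 and 348 CPM in HPC. The early LP libraries all lay below HPC, but median LP 1 lay within the HPC range, so median LP and HPC overlap. Myc fell by 0.34 (SE 0.10) in early LP (adjusted p = 0.00796 in edgeR), and its log2 change in median LP was -0.23 (SE 0.10) and did not pass the test (adjusted p = 0.0547). The call in median LP was made at -0.32 without median LP 1 (adjusted p = 0.00928), at -0.30 after upper quartile scaling (0.0155), at -0.22 in DESeq2 (0.0489) and at -0.23 with the replicate number as a block (0.0468). It was not made under the other alternatives, where the adjusted p ran from 0.0563 to 0.252, and the change shrank to -0.13 without median LP 3. Without HPC 2 it was -0.17. The table lists 2 Myc transcripts that differ by 3 bases in length. The longer one took 71.3 ± 1.5% of Myc counts in median LP, 69.5 ± 1.82% in early LP and 69.8 ± 3.86% in HPC. These shares differed by less than the spread between HPC libraries.

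The RNA polymerase I genes fell in both LP groups, 5 of 5. Polr1b, the second largest subunit, had 69.1, 76.8 and 71.1 CPM in median LP, 72.7, 77.2 and 71.9 CPM in early LP and 127, 133 and 122 CPM in HPC. Polr1e, a subunit that helps the enzyme start and elongate, had 25.2, 26.0 and 27.3 CPM in median LP, 23.8, 23.7 and 24.6 CPM in early LP and 37.5, 38.3 and 40.8 CPM in HPC. For both genes every LP library lay below every HPC library. Polr1b fell by 0.82 (SE 0.07) in median LP and by 0.79 (SE 0.07) in early LP (adjusted p = 3.03e-07 and 4.37e-07 in edgeR), and Polr1e by 0.57 (SE 0.07) and by 0.69 (SE 0.07). Polr1a, the largest subunit, fell by 0.64 (SE 0.08) and by 0.66 (SE 0.08) in median and early LP, and Polr1c, a subunit shared with RNA polymerase III, by 0.76 (SE 0.12) and by 0.67 (SE 0.12). Ubtf, the factor that marks active ribosomal DNA, fell the least of these, by 0.47 (SE 0.06) and by 0.52 (SE 0.06). The shorter of its 2 transcripts took 34.0 ± 0.578% of Ubtf counts in median LP, 36.0 ± 1.70% in early LP and 38.7 ± 1.10% in HPC.

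The box C/D snoRNP members fell as well, 4 of 4 genes in both groups. Nop58 had 212, 216 and 206 CPM in median LP, 219, 182 and 205 CPM in early LP and 371, 347 and 338 CPM in HPC, and Nop56, its partner in the particle, had 243, 234 and 206 CPM in median LP, 202, 209 and 217 CPM in early LP and 364, 347 and 365 CPM in HPC. No LP library of either gene reached the HPC range. Nop58 fell by 0.73 (SE 0.08) in median LP and by 0.80 (SE 0.08) in early LP (adjusted p = 3.44e-06 and 1.6e-06 in edgeR), and Nop56 by 0.66 (SE 0.07) and by 0.78 (SE 0.07). Fbl, fibrillarin, the methyltransferase of the particle, fell by 0.67 (SE 0.10) and by 0.59 (SE 0.10). Rrp9, the protein that binds the U3 snoRNA used in cutting the precursor, fell by 0.81 (SE 0.09) and by 0.75 (SE 0.09). The Nop56 locus overlaps that of Idh3b, an enzyme subunit of the citric acid cycle, which itself had log2 changes of -0.76 (SE 0.08) and -0.75 (SE 0.08).

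The box H/ACA snoRNP, whose 4 proteins work as 1 complex, had 2 members lower, 1 higher and 1 not called in each LP group. Dkc1, dyskerin, the pseudouridine synthase of the particle and also a part of telomerase, had 659, 583 and 534 CPM in median LP, 514, 480.3 and 511 CPM in early LP and 299, 296 and 278 CPM in HPC. All 6 LP libraries of Dkc1 lay above all 3 HPC libraries. Dkc1 rose by 1.02 (SE 0.08) in median LP and by 0.79 (SE 0.08) in early LP (adjusted p = 3.01e-07 and 3.15e-06 in edgeR). Gar1, which joins the particle last, had 57.4, 51.6 and 48.5 CPM in median LP, 46.6, 44.0 and 58.6 CPM in early LP and 67.2, 69.8 and 72.2 CPM in HPC, again without overlap between LP and HPC. It fell by 0.41 (SE 0.10) and by 0.49 (SE 0.10) (adjusted p = 0.00324 and 0.00102 in edgeR). Nop10, the small protein that holds dyskerin on the RNA, fell by 0.35 (SE 0.10) and by 0.47 (SE 0.10). Nhp2, the RNA-binding core protein, was not called, with log2 changes of 0.03 (SE 0.10) and 0.08 (SE 0.10), and without HPC 3 it was called higher in early LP at 0.20 (adjusted p = 0.0389). Its sign in median LP turned to -0.02 without HPC 2 and to -0.01 without median LP 1. Dkc1 and Nhp2 lie in loci shared with Mpp1, a membrane scaffold protein, and Rmnd5b, both of which were higher in LP: Mpp1 stood at 208 ± 11.3 CPM in median LP, 201 ± 7.07 CPM in early LP and 83.7 ± 4.83 CPM in HPC, and Rmnd5b at 70.7 ± 5.63, 68.2 ± 5.64 and 37.9 ± 5.24 CPM. Whether reads were split between these neighbours was not tested, and no source used here says whether counting used strand.

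**Figure D3:**
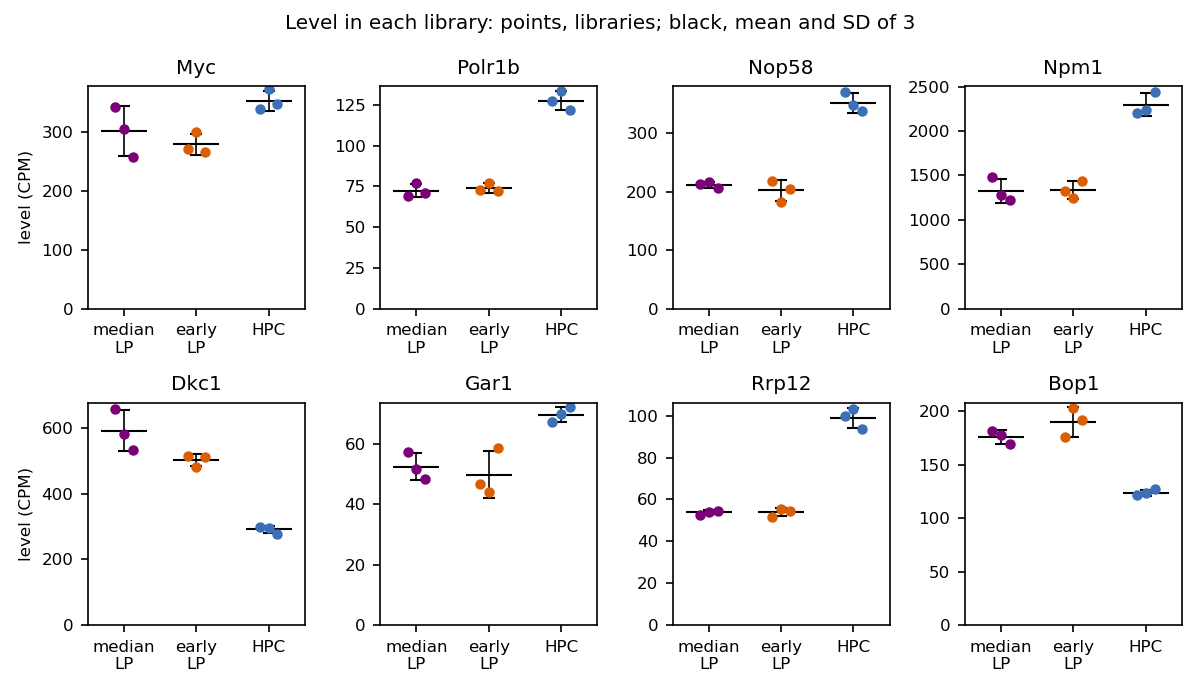
Level in CPM (vertical axis, from 0) of 8 genes in each library of median LP, early LP and HPC; points are libraries, and black lines are means with SD of 3. Myc in median LP overlaps HPC, Dkc1 and Bop1 are higher in every LP library, and the other 5 genes are lower in every LP library.

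The abundant nucleolar proteins fell in both groups, 4 of 4. Npm1, nucleophosmin, a chaperone of ribosome assembly that is often mutated in human acute myeloid leukemia, had 1477, 1279 and 1220.2 CPM in median LP, 1324, 1240.2 and 1441 CPM in early LP and 2208, 2233 and 2445 CPM in HPC. Gnl3, nucleostemin, a GTPase of growing and stem cells, had 156, 153 and 140.3 CPM in median LP, 139, 124 and 137 CPM in early LP and 224, 240.0 and 234 CPM in HPC. Neither gene had an LP library in the HPC range. Npm1 fell by 0.79 (SE 0.09) in median LP and by 0.78 (SE 0.09) in early LP (adjusted p = 8.43e-06 and 9.64e-06 in edgeR), and Gnl3 by 0.63 (SE 0.07) and by 0.80 (SE 0.07). Ncl, nucleolin, which binds the new precursor RNA, fell by 0.47 (SE 0.09) and by 0.47 (SE 0.09), and Nolc1, a chaperone of snoRNPs, by 0.29 (SE 0.07) and by 0.30 (SE 0.07). With its top transcript alone the call of Nolc1 in median LP ended (-0.29, adjusted p = 0.119). Npm1 is listed under 2 gene identifiers. The shortest of its 3 transcripts, of 1288 bases, took 13 ± 0.850% of the Npm1 counts in median LP, 14.7 ± 0.834% in early LP and 16.5 ± 0.195% in HPC, and no LP library reached the HPC range of this share. The Gnl3 locus is shared with Glt8d1 and Spcs1, which were both called higher in LP.

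Of the 9 small subunit factors 6 fell in median LP and 7 in early LP, and none rose. Rrp12, which helps the pre-40S particle mature and leave the nucleus, had 52.7, 54.2 and 54.5 CPM in median LP, 51.7, 55.3 and 54.5 CPM in early LP and 99.7, 103 and 93.7 CPM in HPC. Noc4l, part of the small subunit processome with Nop14, had 53.8, 54.4 and 49.0 CPM in median LP, 57.5, 58.3 and 56.2 CPM in early LP and 90.8, 88.1 and 96.0 CPM in HPC. In both genes the LP and HPC libraries lay far apart. Rrp12 fell by 0.88 (SE 0.06) in both LP groups (adjusted p = 7.98e-08 and 8.16e-08 in edgeR), and Noc4l by 0.81 (SE 0.06) in median LP and by 0.68 (SE 0.06) in early LP. Nop14 fell by 0.54 (SE 0.07) and by 0.62 (SE 0.07), Wdr43, a processome protein that binds the start of the precursor, by 0.53 (SE 0.06) and by 0.61 (SE 0.06), and Bysl, bystin, by 0.50 (SE 0.08) and by 0.47 (SE 0.08). Tsr1, a factor of the late pre-40S particle, fell by 0.29 (SE 0.07) and by 0.44 (SE 0.07). Nob1, the nuclease that makes the final cut of the 18S RNA, was called in neither group, with log2 changes of -0.06 (SE 0.09) and -0.08 (SE 0.09), which became 0.06 and 0.04, still not called, without HPC 3.

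The calls of Heatr1 and Utp20, the longest small subunit members, changed with single HPC libraries and with the scaling and test. Heatr1, a processome protein tied to transcription of ribosomal DNA, had 156, 165 and 166 CPM in median LP, 149, 142 and 146 CPM in early LP and 189.8, 202 and 151 CPM in HPC. Utp20, a long scaffold of HEAT repeats, had 108, 130.4 and 121 CPM in median LP, 123, 104 and 108 CPM in early LP and 143, 146 and 105 CPM in HPC. For both genes HPC 3 lay well below the other HPC libraries. Heatr1 fell by 0.31 (SE 0.09) in early LP (adjusted p = 0.0105), a call that ended at -0.20 without HPC 2 (0.0778), and its change in median LP of -0.15 (SE 0.09) was called at -0.27 without HPC 3 (0.00208) and shrank to -0.05 without HPC 2 and to -0.09 without HPC 1. With all 9 libraries that change was also called after upper quartile scaling (-0.23, adjusted p = 0.0354) and in the 4 limma settings on FPKM (-0.24 to -0.23, adjusted p from 0.0162 to 0.0189). Utp20 was not called, with -0.13 (SE 0.12) and -0.23 (SE 0.12), and it was called at -0.27 (adjusted p = 0.0186) and -0.37 (0.00303) without HPC 3. Its changes shrank to -0.03 in median LP and -0.13 in early LP without HPC 2, to -0.04 and -0.15 without HPC 1, and to -0.05 in median LP without median LP 1. In early LP Utp20 was also called after upper quartile scaling (-0.30, adjusted p = 0.0348) and in limma with each pseudocount (-0.27 to -0.25, adjusted p from 0.0408 to 0.0425), but not in limma without the filter (0.0574). In HPC 3 genes with transcripts of at least 5 kb lay at a median of -0.18 from their HPC mean on the log2 scale and genes under 1 kb at 0.20, while in the other HPC libraries these medians were 0.09 to 0.10 and -0.12 to -0.08. The members ran from 695 bases (Nop10) to 8831 bases (Utp20).

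The large subunit factors had 9 of 10 members lower and 1 higher in both LP groups. Wdr12, which forms the PeBoW complex with Pes1 and Bop1, had 78.5, 78.5 and 75.1 CPM in median LP, 75.3, 75.6 and 83.8 CPM in early LP and 135, 136 and 144 CPM in HPC. Nop2, a methyltransferase of the 28S RNA precursor, had 114, 110.1 and 112 CPM in median LP, 115, 116 and 112 CPM in early LP and 163, 174 and 178 CPM in HPC. Their LP libraries lay below all HPC libraries, and Wdr12 fell by 0.84 (SE 0.06) in median LP and by 0.82 (SE 0.06) in early LP (adjusted p = 2.05e-07 and 2.47e-07 in edgeR), and Nop2 by 0.62 (SE 0.06) and by 0.59 (SE 0.06). The longest of the 3 Wdr12 transcripts took 19.3 ± 1.70% of its counts in median LP, 23.8 ± 3.31% in early LP and 32.2 ± 3.11% in HPC, without overlap between LP and HPC libraries. Pes1, pescadillo, fell by 0.49 (SE 0.07) and by 0.41 (SE 0.07). Bop1, the third PeBoW protein, went the other way, with 181, 178 and 169 CPM in median LP, 176, 203 and 192 CPM in early LP and 121, 123 and 127 CPM in HPC. Every LP library of Bop1 lay above every HPC library, and it rose by 0.51 (SE 0.07) in median LP and by 0.62 (SE 0.07) in early LP (adjusted p = 3.35e-05 and 6.28e-06 in edgeR). Of the others, Grwd1, a chaperone of a ribosomal protein, fell by 0.79 (SE 0.08) and by 0.61 (SE 0.08), Ppan by 0.67 (SE 0.08) and by 0.54 (SE 0.08), and Noc3l by 0.46 (SE 0.10) and by 0.60 (SE 0.10). Noc2l, Rrp1b and Nop16 fell by 0.31 to 0.43 in median LP and by 0.27 to 0.45 in early LP.

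C1qbp and Mybbp1a stand outside these classes. C1qbp, an RNA-binding protein found mostly in mitochondria that also binds the nucleolar Rrp1b protein, had 158, 152 and 148 CPM in median LP, 153, 159.8 and 168 CPM in early LP and 308, 307 and 347 CPM in HPC. It was the member with the largest decrease, and fell by 1.07 (SE 0.07) in median LP and by 1.00 (SE 0.07) in early LP (adjusted p = 6.6e-08 and 1.25e-07 in edgeR). Its locus is shared with Rpain, which was not called. Mybbp1a, a nucleolar Myb-binding protein that restrains ribosomal DNA transcription, had 377, 399 and 374 CPM in median LP, 369, 376 and 368 CPM in early LP and 510.3, 529.8 and 521 CPM in HPC. It fell by 0.44 (SE 0.06) and by 0.49 (SE 0.06), with no overlap between LP and HPC.

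The chromosomes of the members differed in their own medians. Bop1 and Myc lie on chromosome 15 and Nob1 on chromosome 8, where the genes tested had median log2 changes of 0.51 and 0.51 in median LP and of 0.53 and 0.53 in early LP. All other autosomes lay between -0.15 and -0.01 in median LP and between -0.18 and -0.0032 in early LP. Relative to the median of its chromosome, Bop1 stood at -0.01 in median LP and 0.09 in early LP, Myc at -0.74 and -0.86, and Nob1 at -0.57 and -0.61. Dkc1 is the 1 member on the X chromosome, whose median was -0.08 and -0.10. Bop1 also shares its locus with Heatr7a, a protein of HEAT repeats, which stood at 102 ± 5.10 CPM in median LP, 106 ± 7.30 CPM in early LP and 34.4 ± 1.44 CPM in HPC, and with Scx, at under 1 CPM. Of the other shared loci, the neighbour of Bysl (Ccnd3, cyclin D3) was called higher and that of Tsr1 (Srr, serine racemase) lower in both LP groups, and those of Wdr12 (Carf) and Noc2l (Samd11) were not called. Of the 29 members in loci of their own, 25 were called lower in median LP and 27 in early LP, and none higher. The part of chromosome dosage or of shared loci in these values was not tested.

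**Figure D4:**
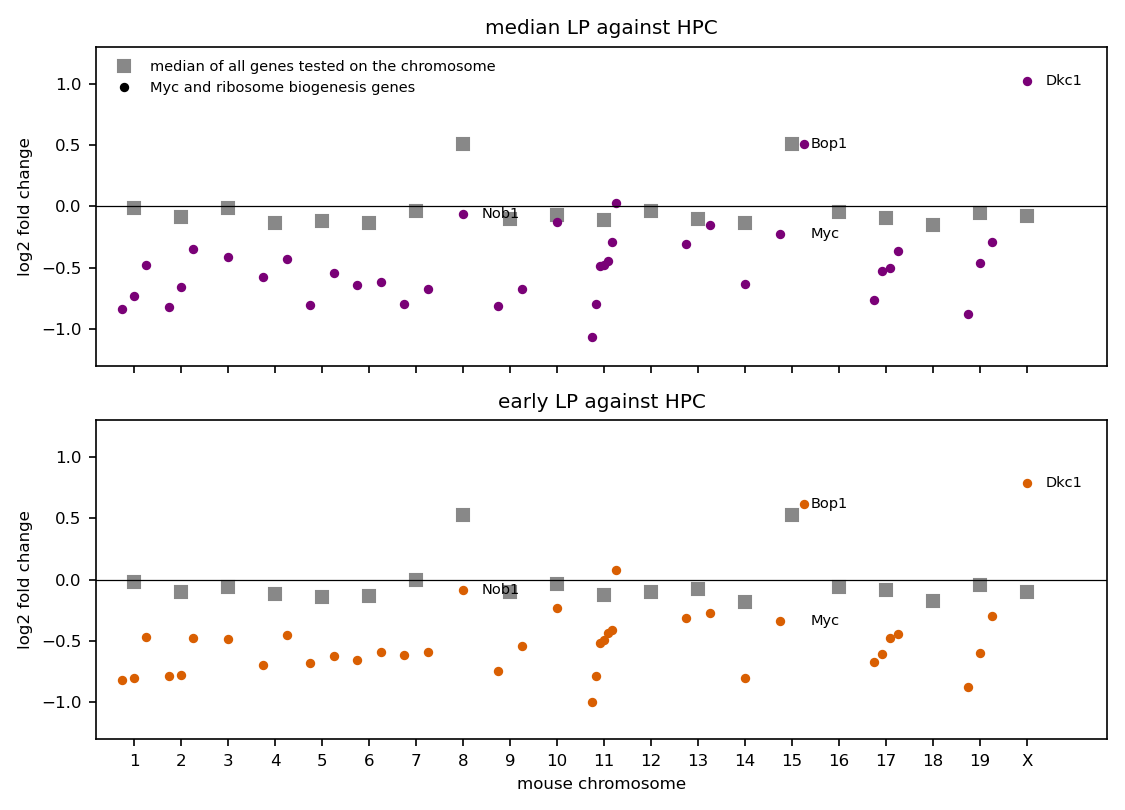
Log2 fold change (vertical axis) of the 39 genes (points) and the median of all genes tested (grey squares) on each mouse chromosome (horizontal axis), in median LP (top) and early LP (bottom) over HPC. The chromosome medians of 8 and 15 lie above 0.5; Myc and Nob1 lie below 0 on them, and Bop1 lies close to its chromosome's median.

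Median and early LP did not differ in any of the 39 genes past the threshold in edgeR, where 2.48% of all genes were called. At an unadjusted p under 0.05 in edgeR there were 4 of the 39 (10.3%), beside 16.5% of all genes. With so few genes this is not read as a difference from that share. DESeq2 called 0 of the members as well. The largest difference was that of Dkc1, at 0.24 (SE 0.08) for median over early LP (adjusted p = 0.161), and the lowest was -0.18 (SE 0.08) for Grwd1. The quartiles of the members lay at -0.04 and 0.09. In 8 of the 39 genes the LP groups did not overlap, where 26.3% of all genes had such groups.

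Per length, the order of the genes was led by Npm1, at 701 ± 89.1 FPKM in median LP, 732 ± 45.8 FPKM in early LP and 1284 ± 131 FPKM in HPC (FPKM as deposited, which divides by transcript length; SD, n = 3). The next in HPC were C1qbp at 255 ± 23.3, Fbl at 239.5 ± 32.6 and Nop10 at 208 ± 39 FPKM, and C1qbp and Fbl, like Fbl and Nop10, did not differ beyond their spread. Dkc1 stood twelfth in HPC at 83.5 ± 0.217 FPKM and came second in median LP, at 158 ± 20.3 FPKM, where its spread overlapped that of Nop10 at 153 ± 6.13 FPKM and Fbl at 145 ± 20.5 FPKM. At the other end Polr1e stood at 6.76 ± 0.154 FPKM in median LP, 6.36 ± 0.178 FPKM in early LP and 10.5 ± 0.792 FPKM in HPC, lowest of the 39 in all groups. The value of Ncl, 178 ± 9.81 FPKM in HPC, rests on a listed transcript length of 8257 bases.

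Promoters were examined because Myc with Max binds the E-box, the letters CACGTG, which read the same on both strands. RefSeq windows on GRCm38.p6, the patch release of mm10, from 250 bases before to 50 after a gene's start, were at hand for 34 of the 39 members, in 43 windows; Myc, Npm1, Fbl, Bop1 and Rrp12 had none. The E-box was in a window of 7 of the 34 (20.6%) and of 8.09% of the 27025 genes in that table. With CACGCG on either strand counted too, the share was 17 of 34 (50%) against 17.2%. Over genes with 1 window only, 7 of 30 members and 7.12% of genes held the E-box. A match shows letters and not binding, and such letters also follow base composition, which was not tested. The members are a chosen list of Myc and ribosome biogenesis genes that all passed the filter on low counts. The 27025 genes also include genes not tested here, so the shares describe unlike sets and were given no test. The 7 were Nop2, Pes1, Grwd1, Mybbp1a, Tsr1, Utp20 and Wdr43. Each held 1 copy, at -60 in Nop2 and between 3 and 41 bases after the start in the other 6, counting the start as 1. The windows of 4 of them follow, chosen to show the place of the E-box in the Nop2 window and in 3 of those with it after the start, all from members that fell, 5′ to 3′ on the gene's strand, with the E-box in capitals.
Nop2, chr6:125131633-125131932, plus strand: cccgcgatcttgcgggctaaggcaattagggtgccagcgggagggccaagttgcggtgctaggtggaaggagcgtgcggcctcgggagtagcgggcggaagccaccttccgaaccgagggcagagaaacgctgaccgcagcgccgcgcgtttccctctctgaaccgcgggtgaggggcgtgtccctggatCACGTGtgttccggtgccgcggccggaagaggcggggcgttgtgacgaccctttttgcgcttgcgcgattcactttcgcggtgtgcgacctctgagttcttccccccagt
Pes1, chr11:3963725-3964024, plus strand: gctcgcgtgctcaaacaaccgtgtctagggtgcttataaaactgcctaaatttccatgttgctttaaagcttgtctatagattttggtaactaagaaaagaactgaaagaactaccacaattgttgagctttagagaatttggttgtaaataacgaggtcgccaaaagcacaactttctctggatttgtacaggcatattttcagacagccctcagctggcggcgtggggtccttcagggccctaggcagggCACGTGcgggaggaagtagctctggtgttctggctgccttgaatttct
Grwd1, chr7:45830740-45831039, minus strand: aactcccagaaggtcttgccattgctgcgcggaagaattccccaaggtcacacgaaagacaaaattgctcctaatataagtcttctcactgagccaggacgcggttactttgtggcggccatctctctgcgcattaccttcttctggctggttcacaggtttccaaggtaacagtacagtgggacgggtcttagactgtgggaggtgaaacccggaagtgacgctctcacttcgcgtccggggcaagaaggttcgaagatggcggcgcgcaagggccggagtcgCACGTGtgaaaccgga
Wdr43, chr17:71615965-71616264, plus strand: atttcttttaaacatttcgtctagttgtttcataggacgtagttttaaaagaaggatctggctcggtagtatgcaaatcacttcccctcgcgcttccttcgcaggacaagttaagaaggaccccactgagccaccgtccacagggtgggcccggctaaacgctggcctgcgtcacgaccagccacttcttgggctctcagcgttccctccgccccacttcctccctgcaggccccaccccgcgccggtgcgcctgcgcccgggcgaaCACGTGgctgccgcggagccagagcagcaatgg
Of all 7 members with the E-box 6 were called lower in each LP group, and their log2 changes ran from -0.79 to -0.13 in median LP and from -0.61 to -0.23 in early LP, with medians of -0.49 and -0.49. Of the 27 members without it in a window 23 were called lower in median LP and 24 in early LP, with changes from -1.07 to 1.02 and from -1.0 to 0.79 and medians of -0.50 and -0.54. The ranges overlap, with the medians close together.

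The rest of the route was read from 160 other ribosome biogenesis genes, none of them members, all of which were tested. In median LP 96 of them fell and 24 rose, and in early LP 100 fell and 23 rose, with a median log2 change of -0.27 and -0.28. That is 60.0% and 62.5% called lower, against 82.1% and 87.2% of the members and 37.7% and 37.9% of all genes. Of 49 other small subunit genes 33 fell and 9 rose in median LP and 36 and 7 in early LP. Aatf, Utp14a and Rcl1 fell by 0.68 (SE 0.06), 0.71 (SE 0.07) and 0.73 (SE 0.06) in median LP, and Utp23, a factor that lies on chromosome 15, rose by 1.06 (SE 0.08). Among 60 other large subunit genes 36 fell in both groups, while 10 rose in median and 9 in early LP. Ccdc86 fell by 1.10 (SE 0.07), Mrto4, a relative of the ribosomal stalk protein P0, by 1.02 (SE 0.08), Gnl2 by 0.68 (SE 0.06) and Mki67ip by 0.58 (SE 0.06).

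Of 12 other genes of the polymerase I machinery 4 fell and 1 rose in median LP, and 5 fell and 2 rose in early LP. The 33.3% and 41.7% lower are near the shares of all genes, 37.7% and 37.9%. Baz2a, a chromatin protein that silences ribosomal DNA, rose by 0.33 (SE 0.10) in median LP and by 0.28 (SE 0.10) in early LP, and Taf1c, a subunit of the promoter selectivity factor, rose by 0.23 (SE 0.08) in early LP. Those that fell included Taf1d, a subunit of that factor, which fell by 0.65 (SE 0.08), Top1, topoisomerase I, which fell by 0.62 (SE 0.09), Rrn3, the initiation factor, which fell by 0.36 (SE 0.08), and Twistnb, a polymerase I subunit, which fell by 0.24 (SE 0.06) in median LP. Of 12 snoRNP assembly genes 8 (66.7%) fell and 0 rose in each LP group, with Ruvbl1, an ATPase of the assembly complex, down by 0.79 and Tcof1, treacle, down by 0.47 in median LP, and Ruvbl2 and Coil down by 0.40 and 0.44. Among 27 exosome and RNase MRP genes 15 (55.6%) fell in both groups, and 4 rose in median and 5 in early LP. Exosc2 fell by 0.70 (SE 0.06) and Isg20l2 by 0.67 (SE 0.06) in median LP. Eri1, on chromosome 8 with its median of 0.51, rose by 0.69 (SE 0.07) there. Rpp25, a protein of RNase MRP, stood at 3.78 ± 0.754 CPM in median LP, 2.06 ± 0.156 CPM in early LP and 0.0657 ± 0.0817 CPM in HPC.

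Of 22 genes of Myc's network, its partners, antagonists and regulators, 12 rose and 4 fell in each LP group, with a median log2 change of 0.43 in median LP and 0.33 in early LP. These are 54.5% higher and 18.2% lower in each. Of all genes 36% were higher and 37.7% lower in median LP, and 35.3% and 37.9% in early LP. Max, Myc's partner, was not called, at 106 ± 6.05 CPM in median LP, 110.0 ± 5.80 CPM in early LP and 114 ± 4.37 CPM in HPC. Mxi1, a repressor that competes with Myc for Max, had 152, 145 and 139 CPM in median LP, 133, 134 and 138 CPM in early LP and 55.5, 49.4 and 51.8 CPM in HPC, and Mlx, the partner of a parallel set of factors, had 135, 126 and 126 CPM in median LP, 128, 127 and 132 CPM in early LP and 57.9, 52.2 and 55.9 CPM in HPC. Both were higher in every LP library, and rose by 1.48 (SE 0.07) and 1.22 (SE 0.06) in median LP and by 1.37 (SE 0.07) and 1.22 (SE 0.06) in early LP. The other Max-binding repressors Mxd1, Mxd3, Mxd4 and Mnt rose by 0.44 to 1.12 in median LP and by 0.33 to 0.92 in early LP. Mycn, the relative of Myc, was close to absent from LP, with 1 recovered fragment in median LP and 11 in early LP against 1191 in HPC, so it was lower by a ratio of 1221 (95% counting interval 219 to 48270) in median LP and of 103 (57.4 to 207) in early LP. Bin1, an adaptor that binds Myc, stood at 1.20 ± 0.248 CPM in median LP, 3.40 ± 0.828 CPM in early LP and 19.9 ± 3.15 CPM in HPC, and fell by 4.05 (SE 0.21) and by 2.54 (SE 0.18).

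**Figure D5:**
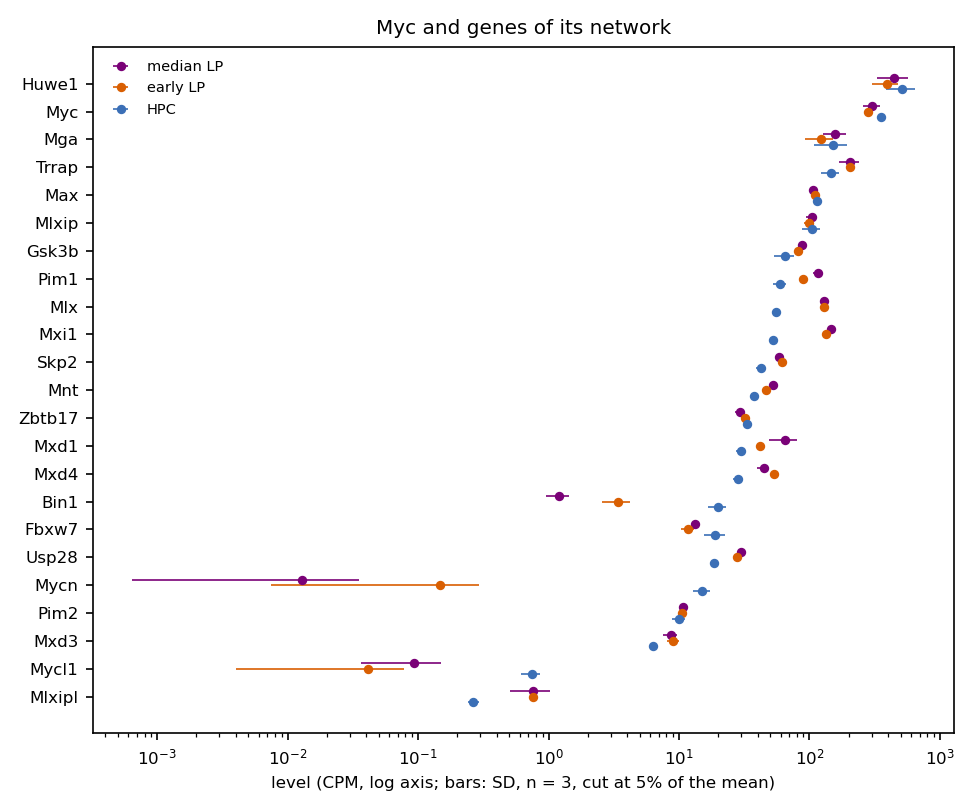
Mean level in CPM (horizontal log axis) of Myc and 22 genes of its network in median LP (purple), early LP (orange) and HPC (blue); bars are SD of 3 libraries, with the lower end kept above 0. Mxi1, Mlx and Mxd4 lie higher in both LP groups, and Mycn and Bin1 lower.

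Known Myc targets outside the ribosome went mostly the way of the members, with 28 of 40 lower and 6 higher in median LP and 27 lower and 7 higher in early LP, at a median log2 change of -0.47 and -0.45. The lower ones are 70% in median LP and 67.5% in early LP, against 37.7% and 37.9% of all genes. Gart, an enzyme of purine synthesis, fell by 0.98 (SE 0.06) in median LP, and Tfrc, the transferrin receptor, which is also on the erythroid list, by 1.28 (SE 0.10). Ccnd2, the cyclin D2 of progenitors, stood at 0.732 ± 0.112 CPM in median LP, 0.609 ± 0.0962 CPM in early LP and 101 ± 12.9 CPM in HPC. Pkm, the pyruvate kinase of glycolysis, rose by 1.73 (SE 0.09) to 2208 ± 76.3 CPM in median LP, against 665 ± 52.7 CPM in HPC. Of 25 proliferation genes 13 (52%) fell and 1 (4%) rose in median LP and 16 (64%) fell and 2 (8%) rose in early LP, with medians of -0.18 and -0.23. Of all genes 36% rose in median LP and 35.3% in early LP. Ccna2, cyclin A2, fell by 0.71 (SE 0.07), Rrm1 by 0.60 (SE 0.06) and Top2a by 0.56 (SE 0.08) in median LP, and Mcm6, a subunit of the replication helicase, rose by 0.50 (SE 0.06).

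Stalled ribosome assembly is known to free the 5S particle, which restrains Mdm2 and so stabilises p53, and 9 genes of that route were read. In median LP 4 fell (44.4%) and 2 rose (22.2%), and in early LP 5 fell (55.6%) and 2 rose (22.2%), against 37.7% and 36% of all genes in median LP and 37.9% and 35.3% in early LP. With 9 genes these counts are not read as a change of the route. Trp53, which encodes p53, stood at 138 ± 4.66 CPM in median LP, 148 ± 4.01 CPM in early LP and 231 ± 15.1 CPM in HPC, and Heatr3, a factor of the 5S particle, at 96.5 ± 2.99 CPM in median LP, 94.0 ± 3.32 CPM in early LP and 124 ± 4.38 CPM in HPC. Both fell in median LP, by 0.74 (SE 0.07) and by 0.36 (SE 0.06). Cdkn1a, the cell cycle inhibitor p21, had 78.9, 66.9 and 75.1 CPM in median LP, 36.3, 41.8 and 40.1 CPM in early LP and 8.72, 8.13 and 9.0 CPM in HPC, and every LP library exceeded every HPC library. Cdkn1a rose by 3.09 (SE 0.09) in median LP and by 2.19 (SE 0.09) in early LP. Cdkn2a, the p16 and p19Arf gene, had 230 recovered fragments in median LP and 300 in early LP and was at 0 in HPC, at least 74.8-fold and at least 105-fold higher against a floor of 3 fragments over the group.

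Markers of other cell types moved with the comparison. Beside their counts, 36% of all genes were called higher and 37.7% lower in median LP, and 35.3% and 37.9% in early LP. The 13 erythroid markers in the table summed to 352 to 439 CPM in the median LP libraries, 194 to 211 CPM in the early LP libraries and 3685 to 4018 CPM in HPC, with 9 lower and 4 higher in median LP and 12 lower and 0 higher in early LP. No marker of this list was at 0 in a whole group, though Hba-a2 averaged only 0.000146 CPM in early LP. Klf1, the erythroid transcription factor, stood at 0.561 ± 0.136 CPM in median LP, 0.658 ± 0.0823 CPM in early LP and 129 ± 14.7 CPM in HPC. The 4 higher in median LP were Hba-a1, Hba-a2, Alas2 and Slc4a1, with log2 changes of 2.57, 3.39, 1.66 and 2.34. In early LP Hba-a1, Hba-a2 and Alas2 were lower than in HPC, and Slc4a1 was not called. The 8 megakaryocyte and platelet markers summed to 9.44 to 12.3 CPM in median LP, 10.5 to 13.9 CPM in early LP and 157 to 203 CPM in HPC, with 7 lower in each. Of 7 primary granule markers of promyelocytes 5 rose in median LP and 6 in early LP, and their sum was 28728 to 30742 CPM, 34964 to 39965 CPM and 13227 to 14886 CPM in median LP, early LP and HPC. The 9 secondary granule markers of neutrophils summed to 11125 to 12323 CPM in median LP, 8996 to 9266 CPM in early LP and 2802 to 5114 CPM in HPC, with 5 lower and 2 higher in median LP and 2 lower and 2 higher in early LP. The 2 higher, S100a8 and S100a9, held most of the LP sums. S100a8 averaged 6801, 5529 and 1208 CPM in median LP, early LP and HPC, and S100a9 4217, 2740 and 1282 CPM. Ltf and Ngp were lower in both LP groups. Ltf averaged 54.8, 168 and 445 CPM and Ngp 145, 239 and 663 CPM in the same order. Mmp8, Mmp9 and Cxcr2 were lower in median LP only, and Camp and Lcn2 were not called. The 7 monocyte and macrophage markers, 6 of them tested, summed to 6974 to 7687 CPM in median LP, 7646 to 7941 CPM in early LP and 707 to 869 CPM in HPC, with 4 higher and 2 lower in each LP group. Ly6c2 held most of these sums, at 5824 ± 182, 6394 ± 160 and 509 ± 55.2 CPM in median LP, early LP and HPC. The 2 lower were Csf1r, at 21.7 ± 2.56, 17.1 ± 1.94 and 57.9 ± 5.60 CPM, and Cx3cr1, at 1.42 ± 0.272, 0.948 ± 0.0784 and 6.74 ± 0.664 CPM. The 6 basophil and mast cell markers summed to 27.3 to 31.0 CPM in median LP, 32.4 to 37.5 CPM in early LP and 218 to 249.6 CPM in HPC, with 4 lower and 1 higher in median LP and 5 lower and 1 higher in early LP. The 1 higher in each, Mcpt8, held most of the LP sums. It averaged 22.1, 28.7 and 12.8 CPM in median LP, early LP and HPC. Gata2 held the largest part of the HPC sum, and averaged 2.22, 2.96 and 116 CPM in the same order. The 10 stem and multipotent progenitor markers summed to 242 to 257, 258 to 259 and 1038 to 1142 CPM in median LP, early LP and HPC. Sums of B cell markers were 1.61 to 3.18, 0.977 to 1.38 and 65.2 to 86.5 CPM, of dendritic cell markers 6.93 to 8.70, 4.06 to 5.90 and 24.7 to 33.2 CPM, and of stromal and endothelial markers 15.5 to 17.2, 15.4 to 20.4 and 47.5 to 55.7 CPM in the same groups. T and NK cell markers summed to 107 to 129, 145 to 159 and 140.3 to 159 CPM, the 1 list of these whose early LP and HPC ranges overlapped. Nkg7 held nearly all of this sum, at 116 ± 10.7, 152 ± 6.79 and 140.4 ± 10.2 CPM. Cd3e, Cd3g, Cd4, Cd8a and Klrb1c were below 1 CPM in every LP library, and Cd4 stood at 8.21 ± 0.635 CPM in HPC. Markers at 0 in a whole group were Pax5 in early LP and HPC, Cd8a in early LP and HPC, Cd3g in early LP and Cd3e in HPC. The part of these cell types in the levels of Myc and the ribosome biogenesis genes was not tested.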

How the data were processed

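RNA of 9 libraries was measured by sequencing. The submitters' processing notes name TopHat2 2.0.6 and the build mm10, and no source used here names the quantifier. Per the file headers, the deposited table holds estimated counts and FPKM for 21388 RefSeq transcripts in each library, made by the authors without pooling. Low values were multiples of 1 step per library (0.868 to 1.2355), and 75.0 to 92.1% of them were whole within 0.05 after division by it, which gave the recovered fragments. Intervals and floors cover counting error only.

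Estimated counts as deposited were summed by gene symbol and rounded. They were tested with edgeR 4.0.16 (R 4.3.3; quasi-likelihood, TMM, filterByExpr) in 1 fit of all 9 libraries without covariates, two-sided, with Benjamini-Hochberg adjustment over 12837 genes; 3700 were left out. The common biological coefficient of variation was 9.81%. The test was checked on simulated data in which few genes changed, as many up as down. Most genes were called against HPC in the real data, so that check does not cover the scaling there. Alternatives were DESeq2 1.42.0, limma 3.58.1 on log2(FPKM + 0.5), other pseudocounts, scalings and filters, a replicate block and leaving out each library.

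The members and lists were chosen with earlier results of these data known. Values by library are given for Myc, for the 2 members of each role with the smallest adjusted p in early LP, and for those that rose. Other lists name up to 4 genes by smallest adjusted p. Library values of Heatr1, Utp20, Mxi1, Mlx and Cdkn1a, and the mentions of Max, Mxd1, Mxd3, Mxd4, Mnt, Baz2a and Taf1c, were chosen after their values were seen. So were the cell type markers named for their part in a sum or for their direction.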

Additional observations from a re-analysis of the deposited data

Results flagged for a closer look

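Between median and early LP, edgeR called none of the 39 members and 5 of the 256 other list genes (1.95%), a share near the 2.48% of all genes. The change of these 5 over HPC differed between the LP groups by a direct test. Cdkn1a was 0.902 higher on the log2 scale in median than in early LP (adjusted p = 0.000257), and Mxd1, a Max-binding repressor, was 0.648 higher (adjusted p = 0.0346). Pim1, a kinase that works with Myc in lymphoma, was 0.3645 higher in median LP (adjusted p = 0.0482). Bin1 stood at -1.512 for median over early LP (adjusted p = 0.00797), and Mcm7, a subunit of the replication helicase, at -0.2742 (adjusted p = 0.0429).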

How the results depend on the processing

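Of 83 single-member results, 73 kept their direction and their side of the threshold under every alternative run for them, 18 for each comparison with HPC. Members called lower numbered 31 to 34 in median LP and 33 to 35 in early LP, and no setting called a member between the LP groups. Nhp2 in median LP turned to -0.049 after upper quartile scaling and to -0.025 in limma with each pseudocount (0.1, 0.5 and 1) and without the filter; leaving out 1 library gave -0.015 to 0.15. Leaving out 1 library gave -0.10 to 0.056 for Nob1 in median LP and -0.12 to 0.035 in early LP, so HPC 3 sets its sign; the cause was not tested. The members called higher numbered 0 in both LP groups without those in shared loci and 1 in both without chromosomes 8 and 15, where fewer members are counted; both settings were chosen after seeing the data. Over all genes, 190 were higher and 128 lower in median than in early LP. DESeq2 gave 325 and 251, a fit of only these groups 362 and 243, and limma 108, 97 and 109 higher with pseudocounts 0.5, 0.1 and 1, and 105 higher and 78 lower without the filter. The top transcript alone gave 75 lower, and leaving out 1 library gave 66 to 133 higher and 39 to 77 lower; the cause was not tested. Replicate numbers did not pair the libraries (correlations of -0.331 to 0.190); with the replicate block 33 members were lower in median LP and 34 in early LP, and 62 of all genes were lower in median than in early LP. Upper quartile scaling moved the median of all genes to -0.12 in median and -0.11 in early LP.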
